A study of Mus musculus with 12 samples.

Results

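The nuclear-encoded subunits of the mitochondrial respiratory chain and ATP synthase were followed through 12 RNA-seq libraries of mouse osteoclasts, large fused cells that dissolve bone. Members were the protein-coding genes of GENCODE M21 whose symbol begins as the subunit families of complexes I to V do (Nduf, Sdh, Uqcr, Cox and Atp5) and whose mean over the 12 libraries was at least 1 CPM, a gene's count scaled to the size of its library. Of the 55414 gene IDs in the deposited tables, 85 protein-coding genes carried such a symbol and 77 met the minimum: 36 in complex I, 4 in complex II, 8 in complex III, 12 in complex IV and 17 in complex V. All 77 passed the filter on low counts and were tested.

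Osteoclasts were grown from bone marrow macrophages of male mice of 7 to 8 weeks, in 30 ng/ml of the macrophage growth factor M-CSF. RANKL, a cytokine needed for osteoclasts to form, was present for 4 days from day 3 on. Each of 4 genotypes has 3 libraries, which the labels call biological replicates: wild type with Hes1 loxP, Notch2 mutant with Hes1 loxP, wild type with Hes1 deletion, and Notch2 mutant with Hes1 deletion. The wild type control thus also carries Hes1 flanked by loxP sites. Notch2 receives signals from neighbouring cells, and Hes1, a transcriptional repressor, is a classical target of Notch. The labels name neither the Notch2 mutation nor how Hes1 was deleted, and the design text speaks of sex-matched littermates.

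Complexes I, III and IV pass electrons from NADH to oxygen and pump protons out of the mitochondrial matrix, complex II feeds in electrons from succinate, and complex V lets the protons flow back to make ATP. Complexes I, III, IV and V are built from subunits of both the nuclear and the mitochondrial genome, whereas those of complex II are all nuclear. Osteoclasts are rich in mitochondria, and their formation and bone resorption use much ATP.

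Each library held between 13832368 and 19293772 counts in genes. Hes1 itself had 6 to 11 counts per library in wild type and 2 to 3 in Notch2 mutant Hes1 loxP cells, against 0 to 2 and 0 to 1 in the Hes1 deletion groups, so the labels could be checked at a low depth only. Notch2 was at 147 to 174 TMM-scaled CPM in the 12 libraries, and its summed count does not check which libraries carry an unnamed mutation. Replicate 3 of wild type cells with Hes1 deletion stood apart from its 2 partners in the summed level of the members (16373 TMM-scaled CPM, against 17533 and 17398), and the main counts and medians that rest on it are given with and without it. In bulk RNA, fewer cells of a type and less RNA per cell cannot be told apart.

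The promoter windows of 6 members are printed to show where the sequence words discussed below lie: that of Uqcrfs1, the member that passed the test for the Notch2 mutation, and in each of complexes I to V that of the member with the smallest p-value for that mutation among those whose window holds a word. Each window covers 300 bases, from 250 before to 50 after the gene start given by RefSeq (GRCm38.p6), and all 6 genes lie on the minus strand. They are written 5′ to 3′ along the gene: Ndufb4 at chr16:37654319-37654618, Sdha at chr13:74350191-74350490, Uqcrfs1 at chr13:30545267-30545566, Uqcr11 at chr10:80406772-80407071, Cox8a at chr19:7217567-7217866 and Atp5g2 at chr15:102670998-102671297. Capitals mark matches to GCGCA, any base and GCGC in a row (bound by NRF1), CCGGAAG (by ETS factors such as GABP), AAGATGGCG (by YY1) or AAGGTCA (by ERR receptors), searched on both strands.
Ndufb4: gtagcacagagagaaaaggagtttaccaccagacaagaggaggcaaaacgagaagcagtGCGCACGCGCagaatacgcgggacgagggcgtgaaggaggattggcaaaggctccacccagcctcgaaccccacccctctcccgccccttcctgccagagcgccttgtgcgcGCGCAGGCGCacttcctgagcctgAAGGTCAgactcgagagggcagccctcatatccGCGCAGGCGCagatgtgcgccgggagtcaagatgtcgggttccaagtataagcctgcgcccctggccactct
Sdha: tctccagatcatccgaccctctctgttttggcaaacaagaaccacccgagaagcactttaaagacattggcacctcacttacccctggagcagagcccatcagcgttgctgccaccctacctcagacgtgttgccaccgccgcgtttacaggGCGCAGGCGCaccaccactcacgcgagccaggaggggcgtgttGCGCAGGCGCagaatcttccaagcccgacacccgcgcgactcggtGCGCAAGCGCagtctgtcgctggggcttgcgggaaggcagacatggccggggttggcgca
Uqcrfs1: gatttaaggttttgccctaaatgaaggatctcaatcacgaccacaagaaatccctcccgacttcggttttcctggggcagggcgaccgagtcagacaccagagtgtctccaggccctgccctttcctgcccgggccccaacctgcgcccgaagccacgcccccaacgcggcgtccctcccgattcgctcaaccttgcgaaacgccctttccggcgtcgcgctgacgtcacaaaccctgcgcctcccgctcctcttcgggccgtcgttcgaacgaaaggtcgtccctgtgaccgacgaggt
Uqcr11: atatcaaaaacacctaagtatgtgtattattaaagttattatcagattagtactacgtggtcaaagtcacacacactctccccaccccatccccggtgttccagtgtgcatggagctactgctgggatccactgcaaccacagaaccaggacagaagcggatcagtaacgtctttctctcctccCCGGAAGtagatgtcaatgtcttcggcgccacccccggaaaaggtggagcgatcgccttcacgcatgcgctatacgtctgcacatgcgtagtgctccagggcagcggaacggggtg
Cox8a: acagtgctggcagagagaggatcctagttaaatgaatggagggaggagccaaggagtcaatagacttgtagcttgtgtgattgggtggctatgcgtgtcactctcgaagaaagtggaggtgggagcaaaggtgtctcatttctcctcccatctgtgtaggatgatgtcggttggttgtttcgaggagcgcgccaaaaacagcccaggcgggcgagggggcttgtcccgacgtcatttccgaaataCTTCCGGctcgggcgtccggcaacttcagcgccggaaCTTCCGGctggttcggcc
Atp5g2: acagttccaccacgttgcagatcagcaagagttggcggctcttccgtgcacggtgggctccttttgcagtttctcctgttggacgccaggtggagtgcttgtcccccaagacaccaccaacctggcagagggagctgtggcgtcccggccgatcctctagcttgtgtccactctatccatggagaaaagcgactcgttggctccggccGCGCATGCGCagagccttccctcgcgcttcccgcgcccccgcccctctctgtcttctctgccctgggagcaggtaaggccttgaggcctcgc

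The Sdha window holds 3 NRF1 words, at positions 153, 196 and 241 from its 5′ end. Sdha is the flavoprotein of complex II that oxidises succinate. In the Ndufb4 window, of a complex I accessory subunit, 3 NRF1 words lie at positions 60, 172 and 229 and an ERR word at 196. The Atp5g2 window has 1 NRF1 word at position 209, read on both strands, and the Cox8a window has ETS words at 246 and 283 that read on the other strand, so the printed letters are CTTCCGG. The Uqcr11 window has a single ETS word at 185, and that of Uqcrfs1 holds none of the 4 words.

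A window was found for 65 of the 77 members. The NRF1 word stood in 17 of them (26.2%), compared with 5.19% of the 27025 genes in the promoter table and 11.9% of the 9466 tested protein-coding genes with a window. The YY1 word stood in 7 (10.8%, against 1.64% and 3.74%): 5 in complex I, among them Ndufs7 and Ndufs4, and 2 in complex V, Atp5j and Atp5j2. The ETS word stood in 16 (24.6%), against 9.93% of all genes and 20.9% of tested ones, and the ERR word in 8 (12.3%), against 5.38% and 3.82%. At least 1 of the NRF1, ETS and YY1 words was present in 34 members (52.3%), against 15.1% of all genes and 32.5% of tested ones. A match is a run of letters and not a shown binding site, and the shares describe these windows only.

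Members also tended to start close to another gene. A gene on the other strand started within 1000 bases of 31 of the 77 members (40.3%), compared with 16.8% of 11777 tested protein-coding genes. Ndufs1 and Eef1b2, a translation elongation factor gene, start 8 bases apart, and Ndufa7 and the ribosomal protein gene Rps28 start 10 bases apart. Ndufs6 lies 29 bases from Mrpl36, a mitochondrial ribosomal protein gene, and Atp5j 700 bases from Gabpa, which encodes a subunit of GABP. Exons of 27 members overlap another gene, on the other strand for 24 of them. Each file set aside 6.11 to 8.31% of its total as ambiguous between genes. Counts of such members may thus lack reads of the overlap, or hold reads of the neighbour, since the strand setting of the counting is not given.

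Most subunit genes were abundant. Levels are compared here as TMM-scaled CPM per kilobase of merged exon, written FPKM, and 75 of the 77 members lay above the median of 5.36 FPKM over the genes tested. The median member was at 61.5 FPKM in complex I, 176 in complex II, 175 in complex III, 174 in complex IV and 83.9 in complex V. With the length of the principal transcript these medians were 106, 250, 301, 295 and 277, so the order of complexes II to V depends on the length used.

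**Figure D1:**
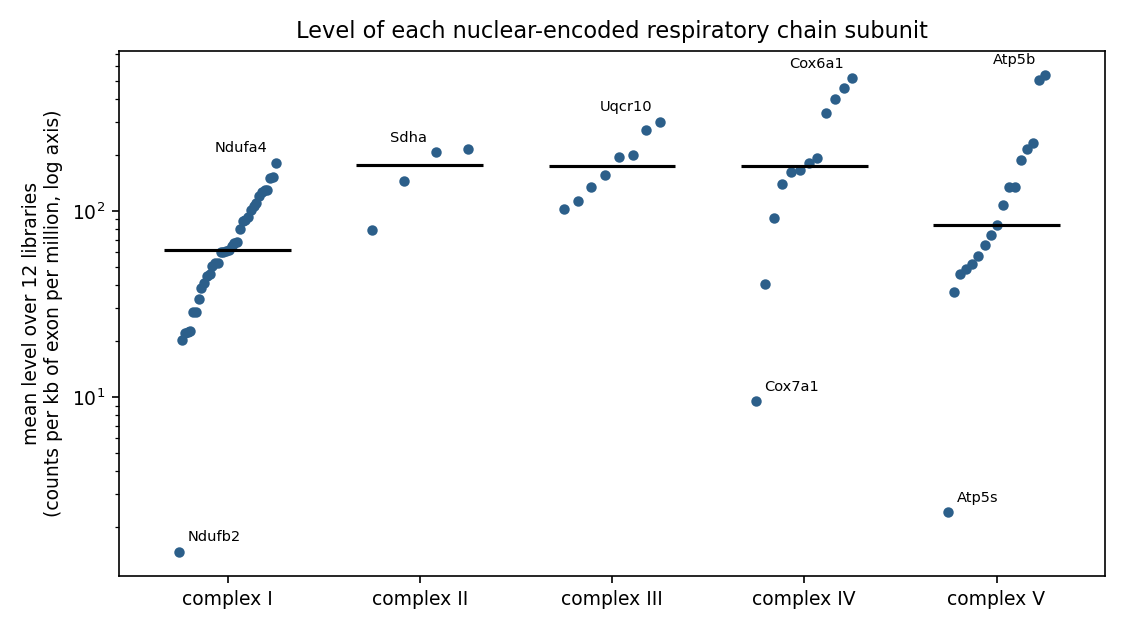
Mean level of each of the 77 members over the 12 libraries, in FPKM (merged exon length) on a log axis, by complex, with the median as a bar. Ndufb2, Cox7a1 and Atp5s lie far below their complexes, and Atp5b and Cox6a1 are the most abundant.

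The catalytic F1 subunits beta and alpha, Atp5b at 539.7 ± 25.2 FPKM (SD, n = 12) and Atp5a1 at 508 ± 16.9, led complex V. Complex IV was led by Cox6a1 (518 ± 31.8 FPKM) and Cox8a (456 ± 28.8), structural subunits around its catalytic core, and by Cox4i1 (684 FPKM) with the principal transcript length. Uqcr10 (302 ± 17.3 FPKM) and Uqcr11 (271 ± 12.7), small subunits of complex III, stood above Uqcrq (102 ± 5.69) and the core protein Uqcrc1 (113 ± 4.74). In complex II the membrane anchor Sdhd (216 ± 8.51 FPKM) and Sdha (206 ± 12.8) overlapped in spread, and the other anchor Sdhc was lowest at 79.1 ± 4.59. Ndufa4 (182 ± 9.78 FPKM) and Ndufa2 (151 ± 6.67) led complex I. Ndufa4 is today counted with complex IV, and is kept here under its symbol.

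At the low end, Ndufb2 had 1.47 ± 0.148 FPKM, against 20.3 ± 1.38 for Ndufb4, the next lowest of complex I. Exons of Ndufb2 overlap Braf and Gm16272 on the other strand and, by 145 bases, Gm42420 on the same strand. Its merged exon length is 5628 bases. The part of these overlaps and of the length in its low level was not tested. Atp5s, or coupling factor B, was at 2.40 ± 0.145 FPKM. Over the 12 libraries the SD of log2 CPM was largest for Ndufb2 in complex I (0.14), Sdha in II (0.09), Uqcr10 in III (0.08), Cox7a1 in IV (0.25) and Atp5l in V (0.08), and Ndufb2 and Cox7a1 are also scarce.

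The isoform genes with a tissue-restricted form showed 1 abundant form each. Cox4i1 stood at 337 ± 19.8 FPKM and Cox4i2, known from lung, at 0.372 ± 0.137. Cox6a1 at 518 contrasted with the heart and muscle form Cox6a2 at 0.685 ± 0.287, and Cox6b1 at 399.6 ± 16.4 with the testis form Cox6b2 at 0.400 ± 0.131. Cox8a at 456 stood beside Cox8b and Cox8c, which had no counts in these 12 libraries. Cox7a1, the heart and muscle form, passed the minimum at 9.46 ± 1.76 FPKM, below Cox7a2 (167 ± 4.59) and Cox7a2l (162 ± 12.8), which assembles complexes III and IV into supercomplexes. Of the 3 genes for the same c subunit of the ATP synthase ring, Atp5g3 was at 232 ± 7.89 FPKM, Atp5g2 at 83.9 ± 4.22 and Atp5g1 at 48.5 ± 2.29.

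Members just inside the minimum of 1 CPM were Atp5s at 4.89 CPM, Cox7a1 at 5.05 and Ndufb2 at 8.28. Just outside were Ndufa4l2 at 0.643, Cox6a2 at 0.467, Cox6b2 at 0.442 and Cox4i2 at 0.293 CPM. Cox8b, Cox8c, Cox7b2 and a second gene ID named Atp5o had no counts. Ndufb1-ps, at 55.2 TMM-scaled CPM, is annotated as non-coding and is no member.

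The first question was how the Notch2 mutation, with Hes1 loxP, moved these genes. Respiratory chain subunits were slightly higher in Notch2 mutant than in wild type osteoclasts, with positive log2 fold changes in 72 of 77 members (50.9% of all genes tested) and a median of 0.10 (0.003 over all genes). The summed level of the members was 17041, 17218 and 17261 TMM-scaled CPM in wild type libraries with Hes1 loxP. In the Notch2 mutant it was 18253, 18398 and 18822. The groups did not overlap. Member by member, all 3 mutant libraries lay above all 3 wild type ones for 35 of 77 (9.83% of all genes) and below for 0 (8.51%).

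Single members rarely passed. The edgeR quasi-likelihood test, adjusted over all 13403 genes, called 1 member, Uqcrfs1, higher (0.142% of all genes were called higher), and 0 lower (0.634%). At an unadjusted p under 0.05, 30 members were higher (7.19% of all genes) and 0 lower (6.96%). That count of 30 was 18 with scaling by library size alone, 15 when replicate 3 of the Notch2 mutant was left out and 18 when replicate 1 of the wild type was. Over all genes, in either direction, 1897 of 13403 had such a p in the main fit and 1896 with scaling by library size alone. Without those libraries 1295 of 13646 and 1486 of 13671 genes had one.

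**Figure D2:**
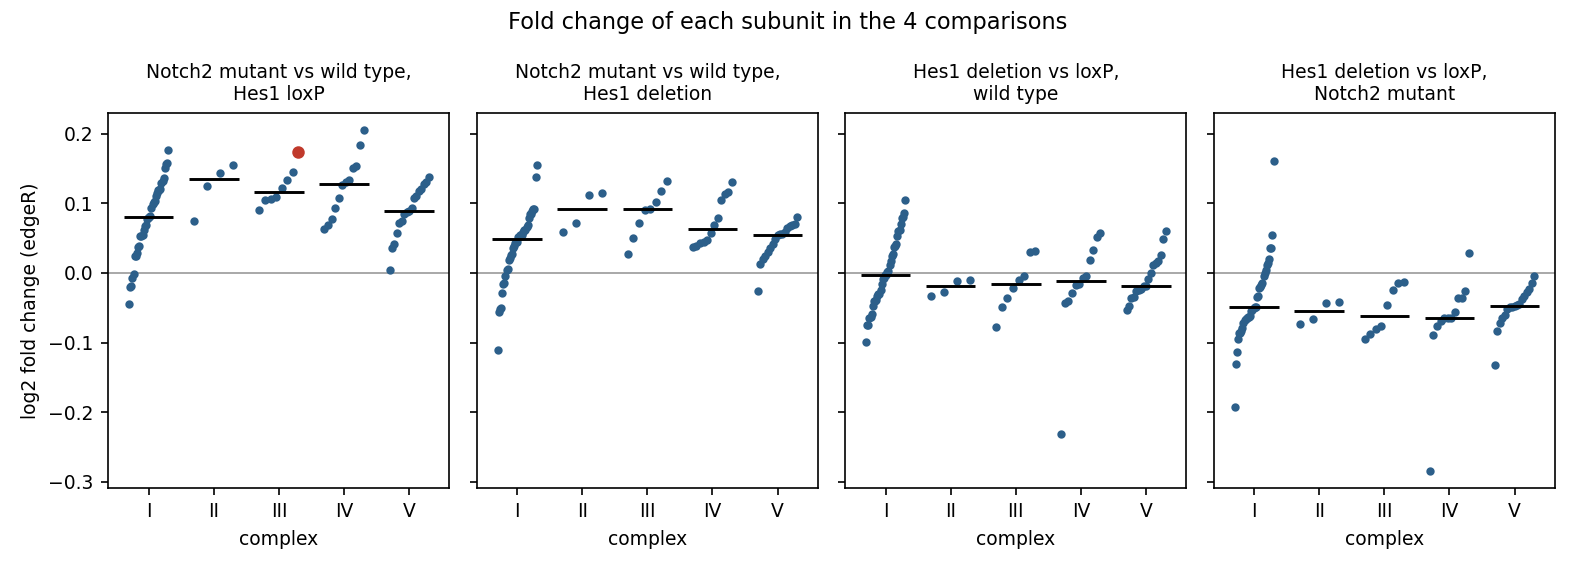
Log2 fold change of each member in 4 comparisons, by complex, with the median as a bar and the 1 member called by edgeR in red. With Hes1 loxP, 72 of 77 members lie above 0 for the Notch2 mutation, and in Notch2 mutant cells 67 lie below 0 for the Hes1 deletion.

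Complex III hands electrons from coenzyme Q to cytochrome c. All 8 of its members had positive values, with a median of 0.12, and 5 had groups that did not overlap. Uqcrfs1, the Rieske iron-sulphur protein, is encoded at 30540308 to 30545362 on chromosome 13 (GRCm38), on the minus strand, and overlaps no other annotated exon. It was at 259, 265 and 255 TMM-scaled CPM in wild type Hes1 loxP libraries and at 289, 296 and 295 in Notch2 mutant ones. The mutant libraries were all above the wild type ones, and the gap exceeded the spread within either group. Uqcrfs1 rose by 0.17 ± 0.04 (log2 fold change ± SE, n = 3 per group, edgeR adjusted p = 0.0464). It did not pass in 15 of 21 other settings. With 1 library left out it passed only without wild type Hes1 deletion replicate 3 (0.0337 by the same test), with an edgeR adjusted p of 0.0720 to 0.173 when any 1 of the 6 Hes1 loxP libraries was left out.

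The core protein Uqcrc2 was at 330, 348 and 323 TMM-scaled CPM against 360, 382 and 364 in the mutant. Its groups did not overlap, and its difference of 0.15 ± 0.04 had an edgeR adjusted p of 0.134. Uqcrc1, the other core protein, had the smallest difference of the complex, 0.09 ± 0.04.

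Complex II had a median difference of 0.13 and 4 of 4 positive values. Sdha was at 809.9, 836 and 814 TMM-scaled CPM in wild type and 902, 898 and 939 in the mutant, groups that did not overlap (0.16 ± 0.05, edgeR adjusted p = 0.141). Sdhc was at 245, 246 and 249 against 271, 264 and 283, also apart, at 0.14 ± 0.05. The iron-sulphur subunit Sdhb did not overlap either, at 0.12 ± 0.05. Sdhd overlapped, at 0.07 ± 0.05.

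Complex IV, the oxidase that reduces oxygen, had positive values for 12 of 12 members with a median of 0.13, and 9 had groups that did not overlap. Cox7a2l was at 224, 227 and 221 TMM-scaled CPM in wild type and 263, 246 and 266 in the mutant. The lowest mutant library stood above the highest wild type one, and the difference of 0.21 ± 0.06 had an edgeR adjusted p of 0.114. Cox8a, at 268, 280 and 273 against 313, 288 and 311, differed by 0.15 ± 0.05. Cox7a1 was scarce and overlapping, at 4.10, 4.95 and 6.35 against 6.18, 5.01 and 6.48, with a difference of 0.18 ± 0.18. The smallest difference was that of Cox7a2, at 0.06 ± 0.04.

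Complex V had positive values for 17 of 17 members and a median of 0.09, with 7 whose groups did not overlap. Atp5b, the most abundant member, was at 2194, 2176 and 2218 TMM-scaled CPM in wild type and 2366, 2366 and 2476 in the mutant (0.13 ± 0.05). Those groups were apart by more than either spread. Atp5g2 was at 135, 142 and 137 against 153, 146 and 154, also apart (0.13 ± 0.04, edgeR adjusted p = 0.173). Among the c subunit genes, Atp5g1 differed by 0.09 ± 0.05 and Atp5g3 by 0.04 ± 0.04, both with overlapping groups. The 4 peripheral stalk genes, which hold the F1 head still, had a median of 0.11 and spanned the whole complex, from Atp5o at 0.00 ± 0.05 to Atp5h at 0.14 ± 0.05. The 5 genes of the F1 head and central stalk had a median of 0.09.

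Complex I had the lowest median, 0.08, with 31 of 36 positive values and 11 members whose groups did not overlap. Ndufa4 was at 234, 240 and 236 TMM-scaled CPM in wild type and 272, 264 and 266 in the mutant. The groups were far apart relative to their spread, and the difference of 0.18 ± 0.04 had an edgeR adjusted p of 0.0616. The 7 core subunits, which carry the flavin and the iron-sulphur clusters or bind the quinone, had a median of 0.12 and 7 positive values. The 29 others had a median of 0.08, with the 5 negative values of the whole set among them: Ndufa5 (-0.04 ± 0.06), Ndufb7, Ndufs6, Ndufa11 and Ndufb6. With Ndufa4 counted in complex IV the medians were 0.08 for complex I and 0.13 for complex IV.

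**Figure D3:**
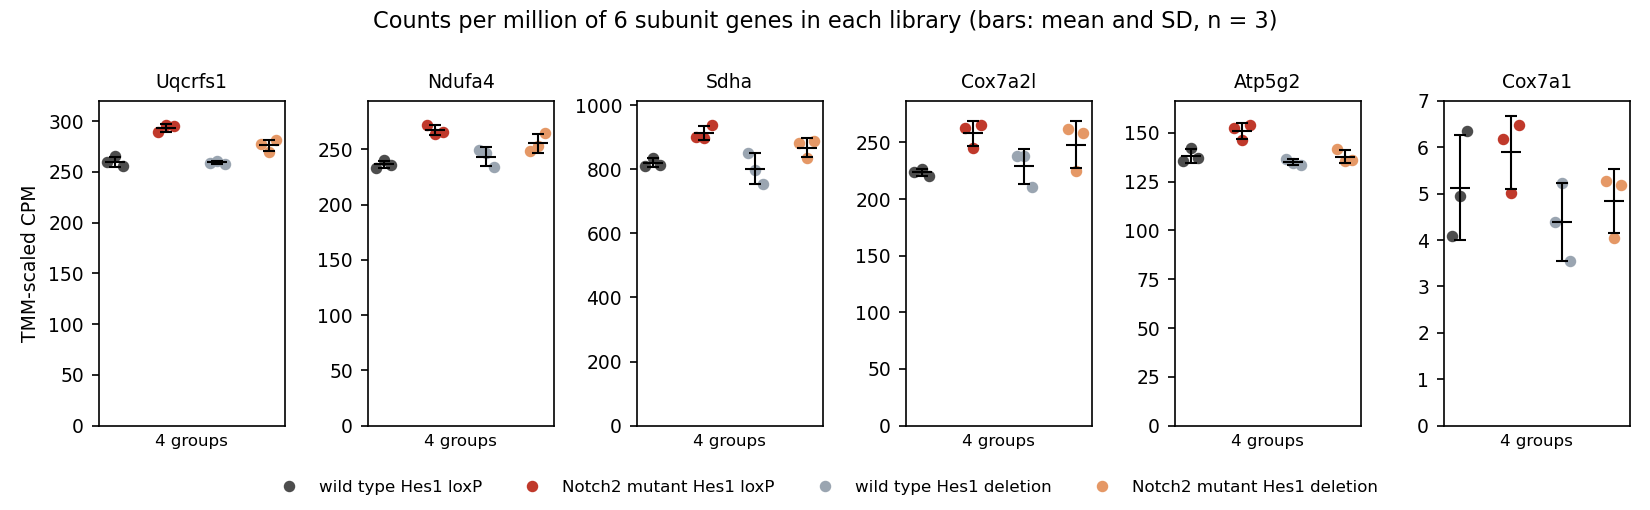
TMM-scaled CPM of 6 members in each of the 12 libraries, with the mean and SD of each group of 3. Uqcrfs1, Ndufa4, Sdha, Cox7a2l and Atp5g2 show Notch2 mutant Hes1 loxP libraries above all wild type Hes1 loxP ones, and Cox7a1 overlaps.

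The second question was whether the Notch2 mutation did the same where Hes1 was deleted. Here 68 of 77 members had positive values (50.6% of all genes) with a median of 0.06. No member was called by edgeR (0% of all genes were called higher and 0.0149% lower), and DESeq2 also called 0. At an unadjusted p under 0.05, 10 were higher (3.22% of all genes) and 0 lower (3.48%). The median was 0.05 in complex I, 0.09 in II, 0.09 in III, 0.06 in IV and 0.05 in V. With Hes1 deleted, wild type cells had a summed level of 17533, 17398 and 16373 TMM-scaled CPM, and Notch2 mutant cells one of 18096, 17509 and 17983. The groups overlapped at replicate 1 of the wild type.

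Without replicate 3 of wild type cells with Hes1 deletion the difference was smaller: 55 of 77 members were positive and the median was 0.02. In that run 1 member had an unadjusted p under 0.05, as did 871 of 13661 genes. The complex I median went from 0.05 to 0.02 (22 of 36 positive), that of complex II from 0.09 to 0.05, that of IV from 0.06 to 0.007 and that of V from 0.05 to 0.02, and that of III was 0.07. In that library Ctsk, the osteoclast's bone matrix protease, was also lowest, at 3972 TMM-scaled CPM against 4921 and 4709 in its partners, and its part in the result was not tested. Leaving out Notch2 mutant Hes1 deletion replicate 1 or 3 left 5 and 3 members at an unadjusted p under 0.05. Of all genes, 747 of 13657 and 560 of 13652 had such a p in these runs. Leaving out its replicate 2 left 15 members, where 1075 of 13665 genes had such a p.

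**Figure D4:**
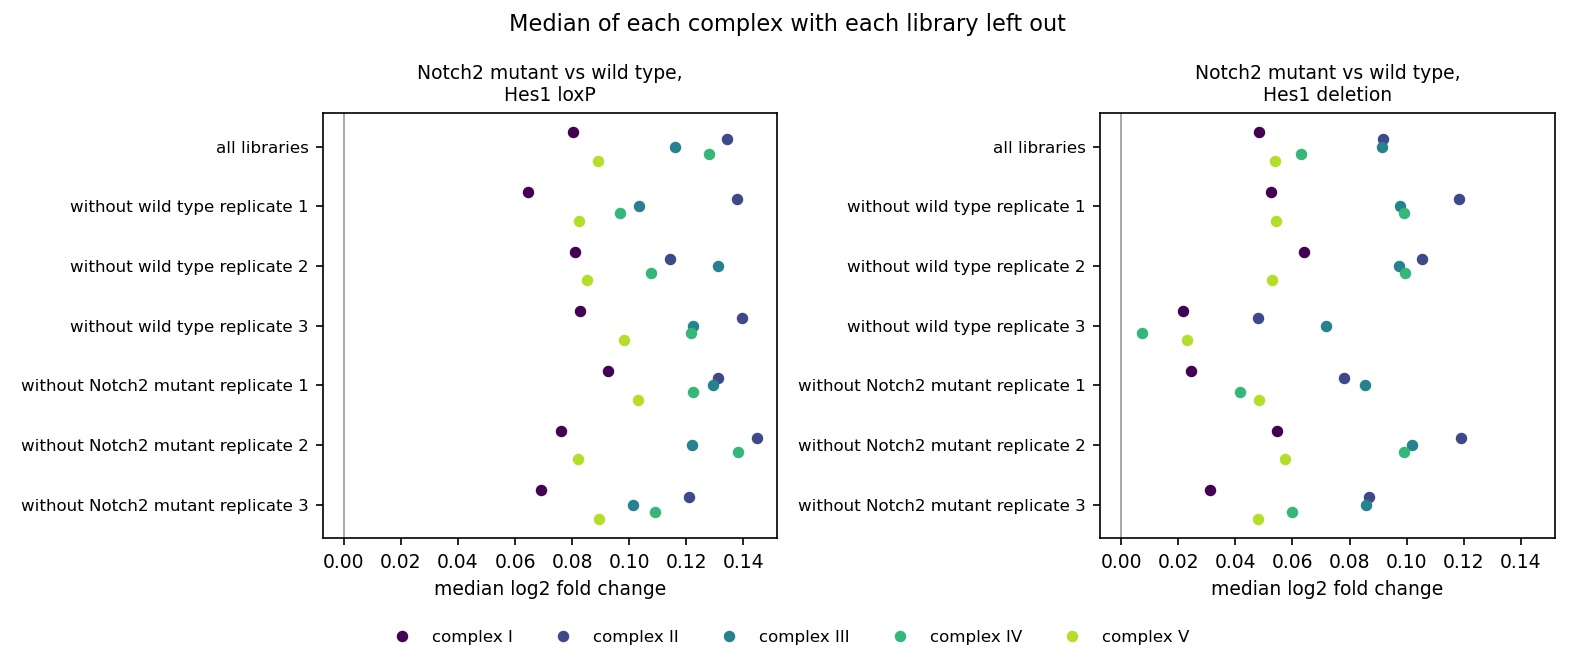
Median log2 fold change of each complex for the Notch2 mutation with all libraries and with each of the 6 libraries compared left out, for Hes1 loxP and Hes1 deletion. With Hes1 deletion the complex IV median is 0.06 with all libraries and 0.007 without wild type replicate 3.

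Groups did not overlap for 16 members that were higher in the mutant (6.06% of all genes) and for 1 that was lower (6.40%). Without wild type replicate 3 these counts were 20 and 3, where 12.5% of all genes were apart in each direction. Complex III held 6 of the 16. Uqcr11 was at 168, 168 and 162 TMM-scaled CPM in wild type and 183, 177 and 182 in the mutant, apart by more than the spread (0.12 ± 0.04, edgeR adjusted p = 0.650). Uqcrq was at 181, 180 and 169 against 189, 195 and 197, likewise apart (0.13 ± 0.05). Uqcrfs1 was at 259, 261 and 258 against 277, 270 and 281. Those libraries did not overlap either, with a difference of 0.09 ± 0.04 and an edgeR adjusted p of 0.734.

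In complex I the accessory subunit Ndufa5 had the largest value, 0.16 ± 0.06, from 46.3, 48.3 and 43.2 TMM-scaled CPM in wild type and 50.9, 52.9 and 49.6 in the mutant, without overlap. Ndufs6 was the member with the groups the other way round, at 56.1, 56.5 and 55.1 in wild type and 49.9, 54.2 and 51.1 in the mutant (-0.11 ± 0.05). In complex II all 4 values were positive and no member's groups were apart, with Sdha at 852, 799 and 754 against 883, 834 and 888. In complex IV the largest values were Cox7a1 at 0.13 ± 0.19 and Cox7a2l at 0.12 ± 0.06, and Cox5a and Cox8a had groups that did not overlap. Values in complex V ran from -0.03 ± 0.05 for Atp5j to 0.08 ± 0.05 for Atp5l.

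The comparisons of the Hes1 deletion share their libraries with those of the Notch2 mutation, so the values are given side by side only. Deleting Hes1 in wild type cells left the subunits close to their starting level. There were 47 negative values among 77 members (49.5% of all genes) and 30 positive ones, with complex medians from -0.02 to -0.002. The edgeR test called 0 members higher (0.0224% of all genes) and 0 lower (0.0149%), and DESeq2 called 0. At an unadjusted p under 0.05, 0 were higher (2.57% of all genes) and 0 lower (3.36%). No member had its groups apart upward (5.11% of all genes), and 3 were apart downward (5.17%): Ndufs3 (-0.10 ± 0.05), Uqcrc1 (-0.05 ± 0.04) and Atp5k (-0.04 ± 0.06). The 95% interval for Uqcrfs1 ran from -0.08 to 0.07. The balance of signs rested on 1 library and on the scaling: without wild type Hes1 deletion replicate 3 there were 52 positive values with a median of 0.02, and 45 with library size scaling alone. Without that library, 12 members were apart upward and 5 downward (13.4 and 13.0% of all genes).

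In Notch2 mutant cells the Hes1 deletion went with lower values, 67 of 77 negative (51.0% of all genes) and a median of -0.05. The edgeR test called 0 members higher (0.0298% of all genes) and 0 lower (0.00746%), and DESeq2 called 0. At an unadjusted p under 0.05, 4 were lower (2.27% of all genes) and 1 higher (2.49%). Groups did not overlap for 8 members that were lower (5.47%) and 1 that was higher (5.12%). The 10 positive values became 23 with library size scaling, 18 without Notch2 mutant Hes1 deletion replicate 2 and 16 without Notch2 mutant Hes1 loxP replicate 3.

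Atp5g2 was at 153, 146 and 154 TMM-scaled CPM in the Notch2 mutant with Hes1 loxP and at 142, 136 and 136 with the Hes1 deletion. The deletion libraries were all lower, and the difference of -0.13 ± 0.04 had an edgeR adjusted p of 0.816. Uqcrfs1 went from 289, 296 and 295 to 277, 270 and 281, again without overlap (-0.09 ± 0.04, edgeR adjusted p = 0.977). Ndufa5 stood apart in the other direction, from 43.7, 47.1 and 46.4 to 50.9, 52.9 and 49.6 (0.16 ± 0.06). Ndufa1, a small X-linked membrane subunit of complex I, had the lowest value of its complex (-0.19 ± 0.08) with overlapping libraries, and Cox7a1 that of complex IV (-0.28 ± 0.19).

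The interaction tested whether the Notch2 difference changed with the Hes1 deletion. It called 0 genes of 13403 by edgeR (0%), and at an unadjusted p under 0.05 it had 1 member higher (2.21% of all genes), Ndufa5 (0.20 ± 0.09), and 1 lower (1.57%), the stalk subunit Atp5j (-0.14 ± 0.07). DESeq2 had 0 members at an unadjusted p under 0.05. Values were negative for 62 of 77 members (50.8% of all genes), with a median of -0.04. The 95% interval ran from -0.19 to 0.03 for Uqcrfs1 and from -0.23 to 0.01 for Ndufa4. After adjustment a smaller Notch2 difference with Hes1 deletion was shown for 0 members, and these intervals are wide beside the differences themselves. Single libraries moved these values in both directions. Without wild type Hes1 deletion replicate 3 the median was -0.08, with 14 positive values and 4 members lower at an unadjusted p under 0.05. Of all genes, 1030 of 13661 had such a p in either direction in that run, against 506 of 13403 with all libraries. Without its replicate 1 the median was -0.02 with 30 positive, and without its replicate 2 it was -0.03 with 25. Without Notch2 mutant Hes1 deletion replicate 2 it was -0.02 with 24 positive. Leaving out replicate 3 of the Notch2 mutant Hes1 loxP libraries gave -0.03 with 23.

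**Figure D5:**
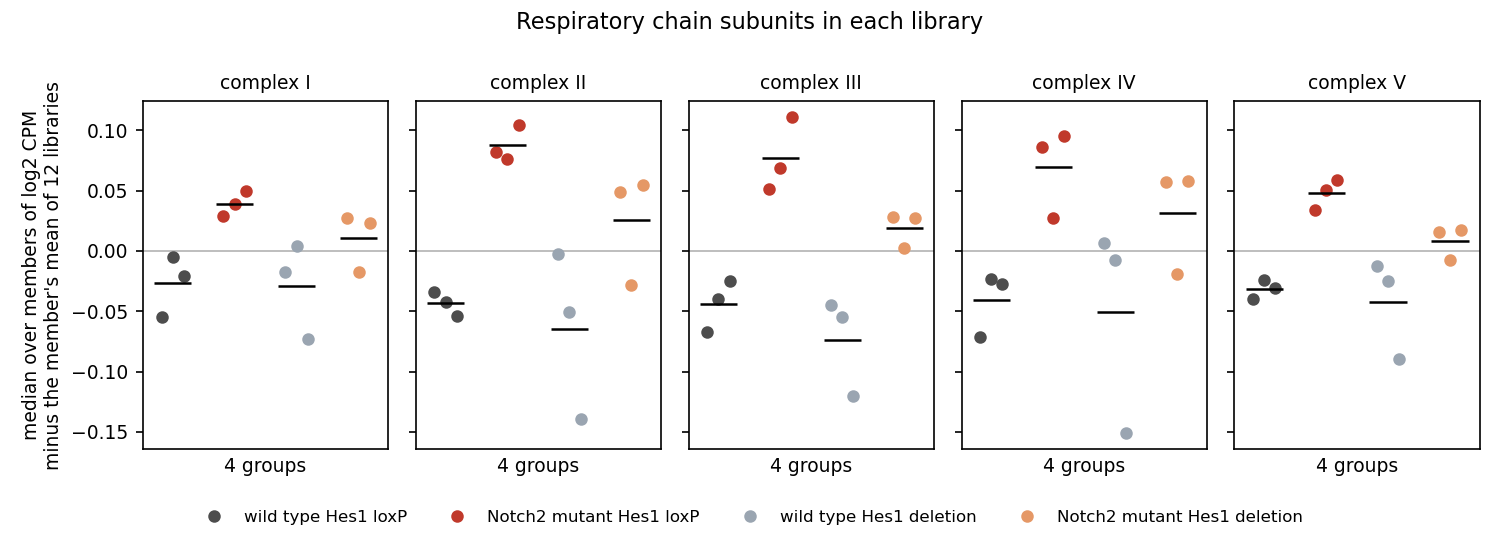
Median over the members of a complex of log2 CPM minus each member's mean of the 12 libraries, for each library, with the group mean as a bar. Notch2 mutant Hes1 loxP libraries lie above all wild type Hes1 loxP ones in every complex, and wild type Hes1 deletion replicate 3 is the lowest point in each complex.

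In each Notch2 mutant Hes1 loxP library 64 to 68 of 77 members lay above their own mean of the 12 libraries, against 17 to 25 in wild type Hes1 loxP libraries. With the Hes1 deletion the counts were 26, 30 and 9 for wild type and 57, 29 and 52 for Notch2 mutant libraries. In replicate 3 of wild type cells with Hes1 deletion, 0 of the 4 members of complex II, 0 of 8 in complex III and 0 of 12 in complex IV lay above their mean, against 7 of 36 in complex I and 2 of 17 in complex V. Complex I was divided in other libraries, with 15 of 36 above their mean in wild type Hes1 loxP replicates 2 and 3 and 19 of 36 in wild type Hes1 deletion replicate 2. The matching shares over all genes tested were not computed, so these counts describe the members only. The pooled spread of the complex medians within groups was 0.03 (log2) in complexes I and III, 0.04 in complex II, 0.05 in complex IV and 0.02 in complex V.

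Members whose promoter window holds an NRF1, ETS or YY1 word did not stand above the others. For the Notch2 mutation with Hes1 loxP, the 34 with a word had a median of 0.08 with 29 positive, and the 31 without had 0.11 with 31 positive. With the Hes1 deletion both medians were 0.06, and 0.02 without wild type replicate 3. No test was made of these medians.

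Genes that serve the chain outside the naming rule were counted from lists. Of 4 further chain genes, the carrier cytochrome c (Cycs), cytochrome c1 (Cyc1), the acyl carrier Ndufab1 and the ATP synthase inhibitor Atpif1, 0 were called for the Notch2 mutation with Hes1 loxP and 4 were positive, with a median of 0.07. Complex I assembly factors, which build the complex without remaining in it, had 9 of 15 positive and a median of 0.04, with 0 called, and those of complexes II to V had 25 of 34 positive and a median of 0.06, with 0 called. Their smallest p-values belonged to Acad9 (0.17 ± 0.08) and to the complex IV assembly factor Coa4 (0.20 ± 0.08). With the Hes1 deletion these 3 lists had medians of 0.04, -0.02 and 0.03, and 0 called. Without wild type replicate 3 the medians were 0.03, -0.06 and 0.02.

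The mitochondrially encoded subunits, partners of the nuclear ones in the same complexes, had a median of 0.07 over 10 tested genes with Hes1 loxP (7 positive, 0 called) and 0.17 with the Hes1 deletion (9 positive, 0 called), where it was 0.21 without wild type replicate 3. Their summed level overlapped with Hes1 loxP, at 9201 to 12971 TMM-scaled CPM in wild type and 10539 to 12722 in the mutant, and was 9182 to 9821 against 9876 to 11651 with the Hes1 deletion. mt-Co2, a catalytic subunit of complex IV, had the smallest p-value there (0.28 ± 0.07, edgeR adjusted p = 0.385). Mean levels of the tested genes were uneven, from 1.98 TMM-scaled CPM for mt-Atp6 and 3.57 for mt-Co3 to 83.0 for mt-Co2 and 4039 for mt-Co1. Reads of mitochondrial genes can also match near-identical nuclear copies, and the part of those copies was not tested.

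Among 17 tested regulators of mitochondrial gene expression, 0 were called higher and 1 was called lower for the Notch2 mutation with Hes1 loxP. Hif1a, the hypoxia-inducible factor, fell from 121 ± 8.00 to 93.9 ± 5.54 TMM-scaled CPM (SD, n = 3). Its log2 difference was -0.37 ± 0.06 (edgeR adjusted p = 0.0066). With the Hes1 deletion the wild type mean of Hif1a was 109 ± 4.11 and the Notch2 mutant mean 105 ± 4.70 (-0.05 ± 0.06). Esrra, which encodes the receptor ERR alpha, stood at 101 ± 4.78 against 111 ± 2.73 (0.14 ± 0.05, edgeR adjusted p = 0.173). Nrf1 (-0.08 ± 0.07), Gabpa (-0.01 ± 0.05) and Yy1 (0.03 ± 0.05), whose binding words were searched above, and the coactivator Ppargc1b (0.07 ± 0.08), did not pass. Its relative Ppargc1a, at 0.0425 CPM on average, was not tested. In the other 3 comparisons 0 regulators were called.

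Markers of other cells moved with the groups. The summed level of 12 osteoclast markers was 39844 to 42956 TMM-scaled CPM in wild type and 47109 to 53087 in Notch2 mutant Hes1 loxP libraries, with 11 of 12 positive (median 0.21) and 1 called higher, the fusion gene Ocstamp. Macrophage and monocyte markers overlapped in summed level, at 4840 to 5136 and 4654 to 5262, while 8 of 12 were negative and 3 were called lower: Adgre1, Msr1 and Fcgr1. Neutrophil markers were at 276 to 360 against 218 to 275, with 9 of 9 negative and 1 called lower, Mmp8, and markers of dendritic cells were at 87.8 to 132 against 114 to 165, with 8 of 8 positive and 0 called. Lymphocyte markers summed to at most 6.24 CPM in any library. With the Hes1 deletion the osteoclast sum was 31470 to 38414 in wild type and 38174 to 42964 in Notch2 mutant libraries, ranges that overlap. This sum includes Ctsk, which in wild type cells averaged 9036 TMM-scaled CPM with Hes1 loxP and 4534 with the deletion. The part of these marker shifts in the subunit differences was not tested.

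Stromal and osteoblast markers were at 282 to 334 TMM-scaled CPM in wild type and 130 to 282 in Notch2 mutant Hes1 loxP libraries. Of the 13 tested, 12 were negative and 1 was called lower, Cxcl12. Cxcl12 was scarce, at 0.469 CPM on average and 0 to 1.36 in single libraries, so its call rests on few reads. Over the 12 libraries the list was led by the collagen genes Col1a1 (112 CPM) and Col1a2 (73.3), then Sparc (31.1) and Col3a1 (27.2), and Lum and Bglap were near 0, at 0.0194 and 0.0316. With the mean log2 CPM of this list as a covariate, 72 of 77 members were positive, 70 of them positive without it too, with a median of 0.10, and Uqcrfs1 was at 0.16 ± 0.05 with an edgeR adjusted p of 0.195. In the Hes1 deletion groups the stromal sum was 356 to 390 in wild type and 233 to 328 in the mutant. The collagen-degrading protease gene Ctsk, an osteoclast marker, fell with the Hes1 deletion in both genotypes. Wild type levels went from 9036 ± 229 to 4534 ± 498 TMM-scaled CPM (SD, n = 3), by -0.99 ± 0.07 (log2, edgeR adjusted p = 4.84e-07). Notch2 mutant levels went from 10827 ± 550.2 to 5032 ± 247, by -1.11 ± 0.07 (edgeR adjusted p = 8.89e-08). Other osteoclast markers moved far less. The median of the 12 was -0.03 with 11 negative in wild type, and -0.09 with 12 negative in the mutant. Ctsk was the only one called lower each time. Next lowest were Calcr in wild type (-0.15 ± 0.08) and Mmp9 in the mutant (-0.16 ± 0.08).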

How the data were processed

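RNA-seq was deposited for 12 osteoclast cultures in 4 groups of 3. The authors deposited raw counts per gene as whole numbers, made, per the labels' protocols, from stranded mRNA libraries. The submitters' processing notes list GRCm38 and the tools HTSeq, HISAT2, DESeq2, Picard and SAMtools. No tool version, annotation release or strand setting was found in these sources. The 5 summary rows, 15.8 to 19.0% of each file's total, entered neither library sizes nor tests. GENCODE M21 named 52081 of 55414 gene IDs; the other 3333 took at most 0.180% of the counts of any library. Depth was 13832368 to 19293772 assigned counts per library.

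All 12 libraries entered 1 edgeR 4.0.16 fit (R 4.3.3) by group with TMM scaling and filterByExpr (minimum count 10, minimum total 15), leaving 13403 genes. Tests were two-sided quasi-likelihood F-tests with Benjamini-Hochberg adjustment over all genes tested and a threshold of 0.05. CPM values printed with library values are TMM-scaled; membership used CPM without TMM. Standard errors derive from the F statistic. Alternatives were other scalings and filters, DESeq2 1.42.0, limma 3.58.1 with voom, a replicate block, a stromal covariate, only the groups compared, and each library left out; the principal transcript length and overlap counts without TMM or without 1 library were added after seeing the data. In a test on simulated data (13228 genes, Notch2 comparison with Hes1 loxP), 34.3% of the 1.2-fold and 94.0% of the 1.5-fold changes were recovered, and 12 of 163 calls were false. Within groups no library duplicated another (chi-square per gene 2.37 to 8.17), and pairs across groups were not checked.

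The members and lists were chosen with earlier results of these data known, so no pattern here is independent support. Named were called members, the largest, smallest and lowest-p values of each complex, the 2 most and least abundant and the most variable members, isoform pairs, and from each list called genes and up to 4 with the smallest p; Nrf1, Gabpa, Yy1, Ppargc1b, core and stalk subunits and further examples were named after their values were seen. Promoter windows were matched through Entrez IDs to RefSeq (GRCm38.p6).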

Additional observations from a re-analysis of the deposited data

How the results depend on the processing

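Of 520 complex medians under alternatives, 506 moved by less than 1 within-group SD and 14 by more. The 520 include runs that left out a library outside the comparison, which could move its medians little. The SD was also large beside some medians. That of complex I for the Notch2 mutation with Hes1 deletion went from 0.048 to 0.022 without wild type replicate 3, within its SD of 0.027. For the Notch2 mutation with Hes1 loxP, 1 member was called (Uqcrfs1), and 0 with library size scaling, the stromal covariate or only the groups compared, 2 without a filter (Ndufa4 and Cox7a2l), 2 with DESeq2 (Ndufa4 and Uqcrfs1), and 0 to 2 with a library left out. The difference of Uqcrfs1 kept its sign at 0.15 to 0.19, with an adjusted p of 0.0032 to 0.195 (edgeR, DESeq2 or limma). In the other comparisons 0 members were called under every alternative run. In simulated counts for the Notch2 mutation with Hes1 loxP, 34.3% of genes changed 1.2-fold were recovered. That size is above the difference of any member in that comparison. The changed genes were drawn from all those with a mean count of at least 50. In the data the median SE was 0.051 over the members and 0.091 over all genes tested. The 34.3% is therefore not a rate for the members, whose recovery was not simulated.

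Genes called for the Notch2 mutation with Hes1 loxP numbered 104, and 657 without a filter, 242 with DESeq2, 3 with the stromal covariate and 26 to 289 with a library left out. With the Hes1 deletion they numbered 2, and 138 without a filter, 1 at a mean count of at least 50, 1 with limma-voom, 0 with the covariate and 0 to 5 with a library left out. For the Hes1 deletion in wild type there were 5, and 135 without a filter, 2 at a mean count of at least 50 and 3 to 26 with a library left out; in Notch2 mutant cells 5, and 110 without a filter, 2 at that mean count, 3 with limma-voom, 3 with the covariate and 3 to 6 with a library left out. The interaction had 0, and 63 without a filter and 0 to 12 with a library left out. The counts of 289, 5, 26 and 12 came without wild type Hes1 deletion replicate 3, and among Hes1 loxP libraries the first comparison had 26 without wild type replicate 1, 35 without its replicate 2, 46 without Notch2 mutant replicate 2 and 28 without its replicate 3.

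With library size scaling alone, the complex V median for the Notch2 mutation with Hes1 loxP was 0.064, and for the Hes1 deletion in Notch2 mutant cells the medians of complexes I, III and V were -0.019, -0.031 and -0.017. With 1 library left out, medians for the Notch2 mutation with Hes1 deletion ranged over 0.048 to 0.119 (II), 0.0074 to 0.099 (IV) and 0.023 to 0.058 (V), that of complex V for the Hes1 deletion in wild type over -0.035 to 0.0046, and that of complex III in Notch2 mutant cells over -0.072 to -0.032. For the interaction they ranged over -0.078 to -0.019 (I), -0.067 to 0.0072 (II), -0.108 to -0.013 (IV) and -0.054 to -0.020 (V). The causes were not tested. Members with Notch2 mutant libraries all above wild type with Hes1 loxP numbered 35, and 28 by CPM without TMM, where 1 was all below against 0. For the Hes1 deletion in wild type, 0 above and 3 below became 3 and 1 without TMM, and in Notch2 mutant cells 1 and 8 became 3 and 4.

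Replicate numbers are shared by the groups, and the labels do not say what they mark. Same-numbered libraries had deviations correlated at 0.13, 0.14 and 0.09 for the Notch2 comparison with Hes1 loxP, where 6 of 6 libraries correlated best with their own number, and at -0.10 to 0.12 in the other 3 comparisons. With the replicate block, 1 member was called, Uqcrfs1 at 0.17 with an edgeR adjusted p of 0.0489, and the block changed no other call of a member.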
